A study of Nothobranchius furzeri with 10 samples.

Results

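In 10 brain libraries of male turquoise killifish, 200 genes varied together along an axis that crossed the exercise and control groups. The axis had been drawn from these same counts. It placed exercise replicates 2, 3 and 4 and control replicates 4 and 5 in a set called B here, and exercise replicates 1 and 5 and control replicates 1, 2 and 3 in a set called A. A gene became a member if it averaged at least 5 counts per 1000000 assigned counts (CPM) and all 5 CPM values of one set lay above all 5 of the other. The 200 genes with the largest difference between sets in mean log2(CPM + 0.5) were kept, out of 820 that met the first conditions, 14163 genes at that level and 26739 genes in the table. The members were thus chosen by these CPM values, as were the sets, and the differences between the sets are given below as a description with no test.

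The study compared 5 brain libraries of fish that had swum in a swim tunnel with 5 from fish without perturbation. All fish were males of 10 weeks from line 4010, and both groups carried the transgene Tg(mylz2:egfp,tfam), so that exercised and control fish shared it. By its name this construct places egfp and tfam under the promoter of mylz2, a myosin light chain gene of fast skeletal muscle, and tfam encodes a packaging and transcription factor of mitochondrial DNA. The labels give no swimming time or intensity, no batch, tank or litter, and nothing that ties a library to a fish of its own. The p-values therefore measure only the spread between these libraries.

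The turquoise killifish, Nothobranchius furzeri, is an annual fish that matures fast and has a short life, and it is used as a vertebrate model of ageing. A brain extract mixes the RNA of neurons, which carry signals, of glia, which support and insulate them, and of vessels and blood. In such bulk RNA, fewer cells of a type and less RNA per cell cannot be told apart. The files do not pair the gene identifiers with names, and a match of all 26739 against RefSeq's gene table found 0. The members are therefore described by level, length and pattern, without function, and brain and other cell type markers were not scored.

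All 200 members were higher in set B, and 0 were higher in set A. Among the 14163 genes with a mean of 5 CPM or more, the sets did not overlap for 662 genes (4.67%) that were higher in set B and for 158 genes (1.12%) that were higher in set A, or 5.79% in both directions. Leaving out any 1 library loosens the rule, since fewer values have to lie apart, and 870 to 1323 genes then passed instead of 820. The most, 1323, passed without exercise replicate 1, which is the library of set A nearest to set B. The 158 genes missed the list through the size of their differences, the largest of which was 1.45-fold on the log2(CPM + 0.5) scale (0.53), whereas 351 of the genes higher in set B differed by more than that. The members differed by 1.75-fold to 7.07-fold, with a median of 2.31-fold. Of the 200, 145 differed by 2-fold or more, 32 by 3-fold or more and 12 by 4-fold or more.

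**Figure D1:**
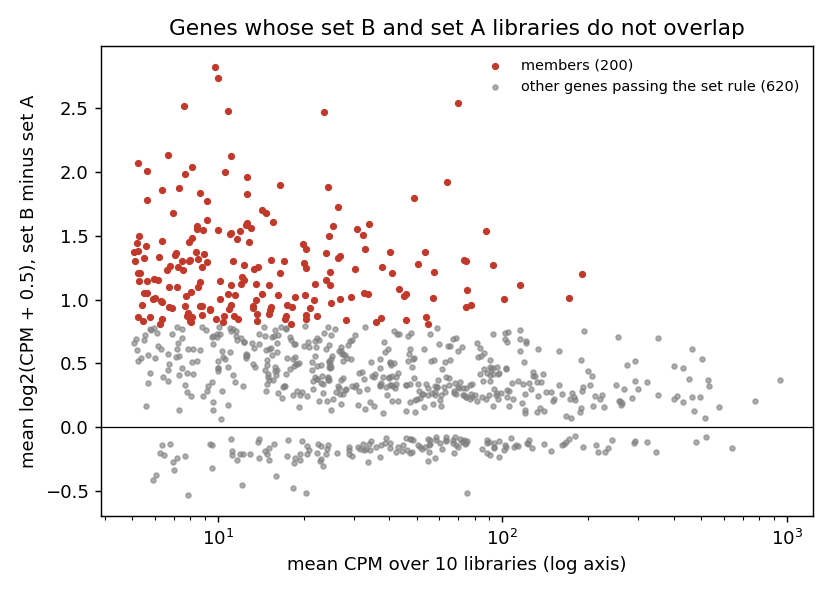
Difference in mean log2(CPM + 0.5) between set B and set A (vertical axis) against mean CPM over 10 libraries (log axis) for the 820 genes whose sets did not overlap. The 200 members (red) all lie above 0, while the 158 genes below 0 reach no further than 0.53 from it.

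The member with the largest difference was Nfu_g_1_020484, with a length of 1532 bp. It stood at 14.8, 9.07 and 29.6 CPM in exercise replicates 2, 3 and 4 and at 10.4 and 24.2 CPM in control replicates 4 and 5, which form set B. In set A it stood at 3.20 and 1.33 CPM in exercise replicates 1 and 5 and at 1.36, 2.36 and 1.36 CPM in control replicates 1, 2 and 3. The gene was thus high in 3 exercised and 2 control brains and low in the others, with 17.6 ± 8.93 CPM in set B and 1.92 ± 0.835 CPM in set A (SD, n = 5 each). Its lowest value in set B was 2.84 times its highest value in set A, the widest gap among the members. The raw counts behind these values ranged from 34 in exercise replicate 5 to 852 in exercise replicate 4.

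The next member, Nfu_g_1_006966 (4209 bp), had 20.97, 16.4 and 25.4 CPM in exercise replicates 2, 3 and 4 and 8.84 and 16.8 CPM in control replicates 4 and 5. Its set A values were 4.81 and 1.253 CPM in exercise replicates 1 and 5 and 1.69, 2.55 and 1.36 CPM in control replicates 1, 2 and 3. Control replicate 4 was the lowest library of set B and exercise replicate 1 the highest of set A, at a ratio of 1.84. The set means were 17.7 ± 6.15 CPM in set B and 2.33 ± 1.48 CPM in set A (SD, n = 5 each), a 6.66-fold difference on the log2(CPM + 0.5) scale.

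The member of rank 3 was better counted, with 339 to 4580 reads per library. It reached 114, 95.04 and 159 CPM in exercise replicates 2, 3 and 4 and 77.8 and 147 CPM in control replicates 4 and 5. In set A it stood at 36.6 and 13.3 CPM in exercise replicates 1 and 5, and at 14.8, 24.5 and 15.1 CPM in control replicates 1, 2 and 3. Exercise replicate 4 was 11.97 times as high as exercise replicate 5, although both libraries are labelled as exercised. This member and the others given below by rank alone were chosen after their values were seen.

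At the edge of the list the separation was far smaller. The member ranked 200 was 1.75-fold higher in set B, where its lowest library had 6.94 CPM, against 5.996 CPM in the highest library of set A. The first gene left out was 1.73-fold higher, with 21.8 CPM and 18.5 CPM at the same edges. The narrowest gap among members was a ratio of 1.004 between the lowest set B and the highest set A library, the median ratio was 1.33, and 55 of 200 members had a ratio of 1.5 or more.

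No member was switched off in set A. The lowest count of any member in any library was 22, and the lowest count of a member over its 10 libraries had a median of 126.5. From the lowest to the highest library a member changed by 2.43-fold to 22.2-fold, with a median of 4.32-fold. Together the 200 genes took 0.727% of all assigned counts in exercise replicate 4 (95% Wilson interval 0.724% to 0.731%) and 0.185% in exercise replicate 5 (0.184% to 0.187%), intervals that cover counting error only.

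**Figure D2:**
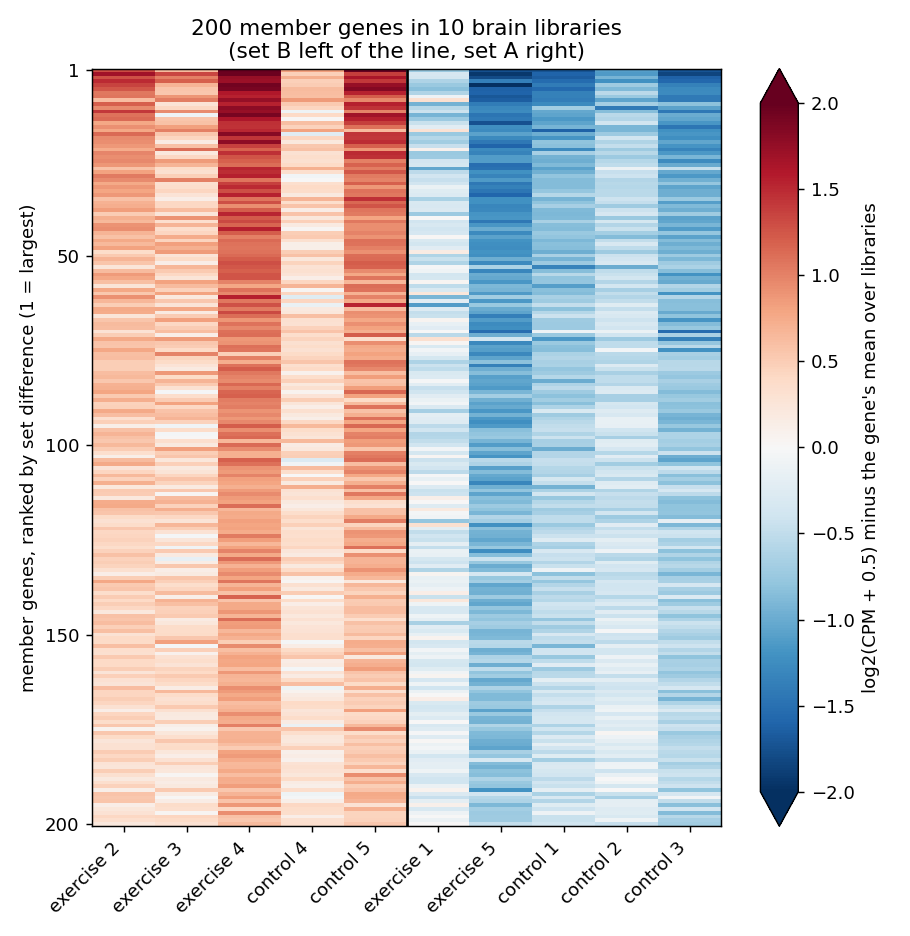
Level of each of the 200 members (rows, largest set difference at the top) in each library (columns; set B left of the line and set A right of it), as log2(CPM + 0.5) minus the mean of that gene over 10 libraries. Exercise replicate 4 and control replicate 5 are the darkest red columns and exercise replicate 5 the darkest blue, in both the upper and the lower rows.

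The levels formed a graded series of libraries and not only a split in 2. Averaged over members and expressed relative to each gene's mean over libraries, on the log2(CPM + 0.5) scale, exercise replicate 4 was highest at 1.01. It was followed by control replicate 5 at 0.84, exercise replicate 2 at 0.58, exercise replicate 3 at 0.43 and control replicate 4 at 0.32. Set A followed with exercise replicate 1 at -0.28, control replicate 2 at -0.43, control replicate 1 at -0.68, control replicate 3 at -0.78 and exercise replicate 5 at -1.01. The ends of the series, both exercised brains, were 4.08-fold apart.

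The widest step, 0.60 or 1.51-fold, lay between control replicate 4 and exercise replicate 1, where the sets meet and where the rule requires a gap in every member. The other 8 steps were between 0.11 and 0.25. The smallest of them, between control replicates 1 and 3, had the same sign in 144 of 200 members. The step between control replicates 2 and 1 had it in 175. Fewer members shared the sign between exercise replicate 3 and control replicate 4 (130), exercise replicate 1 and control replicate 2 (131), and exercise replicates 2 and 3 (135). Members vary together, so these counts do not replicate the order of single libraries. The spread of the members in a library was as wide as several steps: in exercise replicate 4 the middle 50% of members lay between 0.76 and 1.19, and in control replicate 5 between 0.59 and 1.05. The step between exercise replicate 4 and control replicate 5 had the same sign in 158 of 200 members.

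**Figure D3:**
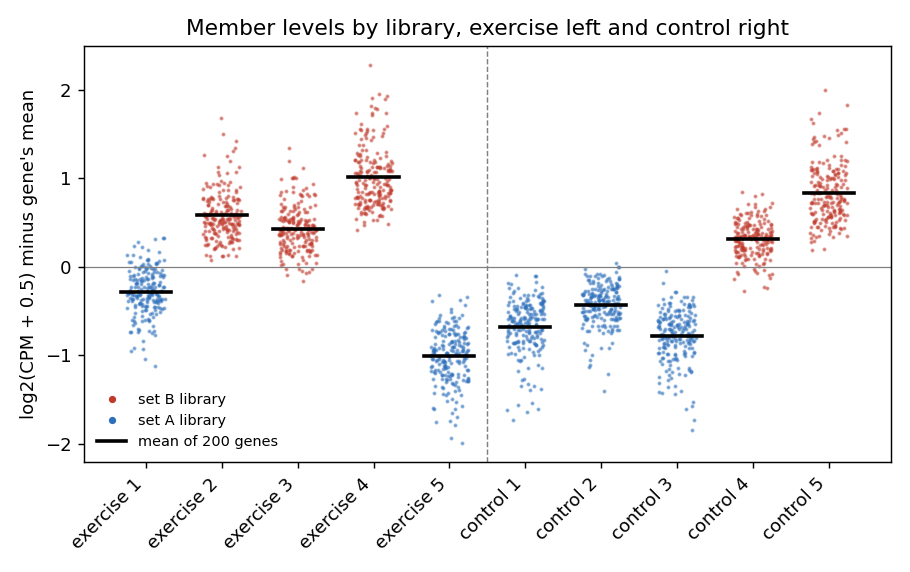
Level of the 200 members (1 point per gene) in each library, as log2(CPM + 0.5) minus the gene's mean over libraries, with a bar at the mean of the 200 genes; exercise libraries are left of the dashed line and control libraries right of it. Each group holds libraries of both sets, with means from -1.01 to 1.01 in exercise and from -0.78 to 0.84 in control.

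Inside each set the members tended to peak and to bottom out in the same libraries, as a description, since the same CPM values drew the sets and ranked the members. Exercise replicate 4 was the highest library for 155 members, control replicate 5 for 40 and exercise replicate 3 for 5. At the low end, exercise replicate 5 was lowest for 154 members, control replicate 3 for 30, control replicate 1 for 11, exercise replicate 1 for 3 and control replicate 2 for 2. Over all 14163 genes, exercise replicate 4 was highest of set B in 19.2% and control replicate 5 in 21.2%. Exercise replicate 5 was lowest of set A in 31.5% of them and control replicate 3 in 21.5%. The 462 other genes higher in set B came nearer to the members. Exercise replicate 4 was highest of set B in 52.4% of these 462, and exercise replicate 5 lowest of set A in 68.8%. Both ends coincided in 116 members (58.0%), which had exercise replicate 4 on top of set B and exercise replicate 5 at the bottom of set A. Among the 13343 genes of the same minimum level that failed the set rule, this was the case for 5.61%, and among the 462 other genes higher in set B for 37.2%.

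Ratios of libraries within the sets were set beside the rank of the members; the rank contains these libraries, so the ratios are a description. For the 50 members of largest difference, exercise replicate 4 exceeded control replicate 4 by a median of 1.98-fold, and exercise replicate 1 exceeded exercise replicate 5 by 1.91-fold. For ranks 51 to 100 these ratios were 1.67-fold and 1.64-fold, for ranks 101 to 150 they were 1.42-fold and 1.55-fold, and for ranks 151 to 200 they were 1.39-fold and 1.56-fold. Exercise replicate 4 was above control replicate 4 in 198 of 200 members, and exercise replicate 1 above exercise replicate 5 in 197. The same ratios had medians of 1.11-fold and 1.255-fold in the 462 other genes higher in set B, and of 1.004-fold and 1.03-fold in the genes that failed the rule. The libraries of each ratio had been picked for their place in the member order.

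A single profile described most members. The first component of the 200 genes over 10 libraries took 93.3% of their variance and the second 2.48%. Of the variance, 80.4% lay between the sets, which the rule had fixed, and 19.6% within them. Within the sets alone, the first component of the deviations from the set means took 68.4%. For a single member, the mean profile of the other members accounted for 70.0% to 99.3% of its variance (median 93.4%), with 90% or more in 151 of 200. The rule raised these shares, because every member had to part the same sets, so they are a description. Members differed mainly in how steeply they followed the mean profile, with slopes from 0.61 to 2.19 and a median of 0.94.

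The member that followed the common profile most closely ranked 82. It had 28.2, 23.6 and 36.2 CPM in exercise replicates 2, 3 and 4 and 23.0 and 32.3 CPM in control replicates 4 and 5, all above its set A values. Those were 14.7 and 8.19 CPM in exercise replicates 1 and 5 and 11.9, 12.4 and 10.2 CPM in control replicates 1, 2 and 3. The member that followed it least, at 70.0% of its variance, ranked 72. It had 109, 116 and 118 CPM in exercise replicates 2, 3 and 4 but only 87.9 and 81.9 CPM in control replicates 4 and 5. In set A it stood at 80.3 and 49.1 CPM in exercise replicates 1 and 5 and at 28.7, 38.5 and 24.9 CPM in control replicates 1, 2 and 3, so that the exercise libraries lay above the controls inside each set. Exercise replicate 1 came within a ratio of 1.02 of control replicate 5.

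The most abundant member by CPM ranked 102, was 5145 bp long and belonged to the 40 members that peaked in control replicate 5. It had 217, 244 and 282 CPM in exercise replicates 2, 3 and 4 and 240 and 346 CPM in control replicates 4 and 5. Its set A values were 135 and 83.0 CPM in exercise replicates 1 and 5 and 114, 116 and 128 CPM in control replicates 1, 2 and 3. The means, 266 ± 50.6 CPM in set B and 115 ± 19.99 CPM in set A (SD, n = 5 each), differed by 2.30-fold, close to the median of the list. Corrected for length, the highest member ranked 85 (1755 bp), with a mean of 52.8 RPKM (reads per kilobase and per 1000000 counts, recomputed from the counts and each library's own total).

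The 40 members that peaked in control replicate 5 had a median level of 11.4 CPM and a median length of 2760 bp. The 155 that peaked in exercise replicate 4 had medians of 11.96 CPM and 3135 bp. The ratio of exercise replicate 4 to control replicate 5 had a median of 0.913 among the 40 and of 1.18 among the 155. The grouping by peak library fixed the direction of this contrast. The median difference of set B over set A was 2.19-fold among the 40 and 2.36-fold among the 155.

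Members were expressed at lower levels than the other genes above the minimum. Their mean levels ran from 5.07 to 191 CPM with 11.8 CPM as the median, whereas the 14163 genes had a median of 30.4 CPM. The other genes that passed the set rule did not share this low level. Their medians were 37.0 CPM for the 462 higher in set B and 46.8 CPM for the 158 higher in set A. Per length, the median was 4.57 RPKM for members and 11.2 RPKM for all, on the scale of own library totals. Low levels were common: 80 members (40.0%) were below 10 CPM, where 16.6% of all 14163 genes lay, and 61 (30.5%) were at 20 CPM or more, where 63.4% lay. The median difference of members was 2.37-fold below 10 CPM, 2.21-fold from 10 to below 20 CPM and 2.30-fold from 20 CPM. All members had passed the same cut on this difference, so these medians do not show whether the difference depends on level. By CPM the most abundant member stood at place 960 among all genes, so none was among the 200 most abundant.

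The within-set SD of a member on the log2(CPM + 0.5) scale had a median of 0.34. The SD of counting alone, computed for log2 counts without the added 0.5, had a median of 0.093. Gene length, recovered from the deposited tables, had a median of 2952 bp in members (lower and upper quartiles 1873 and 4681 bp) and of 3077 bp over all 14163 genes. The 462 other genes higher in set B were longer, with a median of 4236 bp, and the 158 genes higher in set A had 2772 bp.

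Among the library measures beside the member level, the gene length slope fell along most of the same series. Longer genes were relatively higher in some libraries. The slope of the log2(CPM + 0.5) deviation per doubling of gene length was fitted over all 14163 genes, members included. These also hold the 462 other genes that the rule found higher in set B, which were longer. No slope was fitted without the genes that passed the rule, so the slopes are a description. The slope was between 0.0015 and 0.0236 in set B and between -0.0193 and 0.0068 in set A. From the top of the member series down, exercise replicate 4 had 0.0236, control replicate 5 had 0.0100 and exercise replicate 2 had 0.0116. Exercise replicate 3 and control replicate 4 followed at 0.0052 and 0.0015. In set A, exercise replicate 1 had 0.0068, control replicate 2 had -0.0068 and control replicate 1 had -0.0148. Control replicate 3 and exercise replicate 5 had -0.0193 and -0.0178. Exercise replicate 4 had the steepest positive slope, and exercise replicate 1, the highest library of set A in 125 members, the only positive slope of that set. Set B held 22.3 to 38.1 M assigned counts (M, 1000000) per library and set A 21.2 to 27.8 M. Depth averaged 28.5 ± 5.85 M in set B and 25.8 ± 2.71 M in set A (SD, n = 5 each). It did not follow the series library by library, with 22.3 M in control replicate 5, 26.3 M in control replicate 4 and 27.8 M in exercise replicate 1. Between 21751 and 22006 genes were detected in set B libraries and between 21669 and 21830 in set A libraries. Their part in the result was not tested.

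These genes were proposed as the main axis of the series, and the sets parted on the first component when the members were included and not without them. The members were chosen for parting these sets, so their removal works against the parting by construction, and the components are a description. Over all 14163 genes the first component took 29.6% of the variance, and every library of set B lay above every library of set A on it. The members, 1.41% of those genes, held 12.1% of the total variance. Over the other 13963 genes the first component took 25.1% and no longer parted the sets. On that component exercise replicates 1, 2, 3 and 4 had scores from 0.24 to 0.46 (the 10 scores scaled to unit length) and control replicates 4 and 5, which share set B with 3 of these exercise libraries, scores of -0.21 and -0.31. Exercise replicate 5 had -0.33, and control replicates 1, 2 and 3 had -0.11, 3.2e-05 and -0.45, so that this component did not part exercise from control either. The second component, with 20.8%, did not fully part the sets either. In set B, exercise replicates 2 and 4 and control replicates 4 and 5 had scores from 0.18 to 0.43 on it. Exercise replicate 3 had -0.15. In set A, exercise replicates 1 and 5 and control replicates 2 and 3 had scores from -0.61 to -0.12. Control replicate 1 had 0.07. The difference between sets accounted for 16.8% of the variance of the 13963 genes, against 80.4% among members. The rule chose members by this difference and so fixed the direction of that contrast.

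The comparison of the study asked which brain genes differ between fish with and without physical exercise, and the members gave 0 calls. By edgeR's quasi-likelihood test with Benjamini-Hochberg adjustment, 33 of 19325 genes (0.171%) passed an adjusted p of 0.05, 12 higher (0.0621%) and 21 lower (0.109%), and the smallest adjusted p among members was 0.462. When a single library was omitted, the count of 33 became 11 to 14 for exercise replicates 1, 2, 3 and 4, 17 to 21 for control replicates 1, 2, 3 and 4, and 91 for exercise replicate 5, with 0 members each time. All 200 members were among the genes tested. At an unadjusted p below 0.05 edgeR found 0 members and 11.7% of all genes (higher in 5.00% of all genes). DESeq2 gave 0 members after adjustment (2.04% of all genes) and 2 at an unadjusted p below 0.05 (12.1%). Limma voom with sample weights gave 0 members after adjustment (0.549% of all genes) and 31 of 200 at an unadjusted p below 0.05 (16.0% of all genes). Both DESeq2 members and all 31 limma members were higher in exercise, as were 5.36% of all genes at that p in DESeq2 and 6.86% in limma. The rule itself limits these counts, because both sets hold libraries of both groups and a gene that parts the sets cannot part exercise from control. The groups were parted in 0 members and in 3.10% of the 14163 genes, and nothing can be read from the contrast.

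In size, the members leaned towards exercise, by a median amount that the makeup of the groups largely fixes. The edgeR log2 fold change of exercise over control had a median of 0.30 over members, positive in 186 of 200, against 0.002 over all genes tested. This median was 0.05 without exercise replicate 4, 0.17 without control replicate 1, 0.16 without control replicate 3, 0.50 without exercise replicate 5 and 0.58 without control replicate 5. Set B holds 3 exercise and 2 control libraries, and set A holds 2 and 3. A difference between sets therefore passes into the difference between groups with a factor of 0.2. On the log2(CPM + 0.5) scale this part had a median of 0.24, the whole difference of exercise minus control a median of 0.27, and the rest a median of 0.03, above 0 in 118 of 200 members. In single members the rest was wider, from -0.40 to 0.71, than the part from the makeup, from 0.16 to 0.56. The mean member level, relative to each gene's mean, averaged 0.15 ± 0.80 over exercise libraries and -0.15 ± 0.70 over controls (SD, n = 5 each). The groups thus differed by less than the spread inside either. The rule itself put high and low libraries into both groups and so widened that spread, and nothing about exercise can be read from this contrast.

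**Figure D4:**
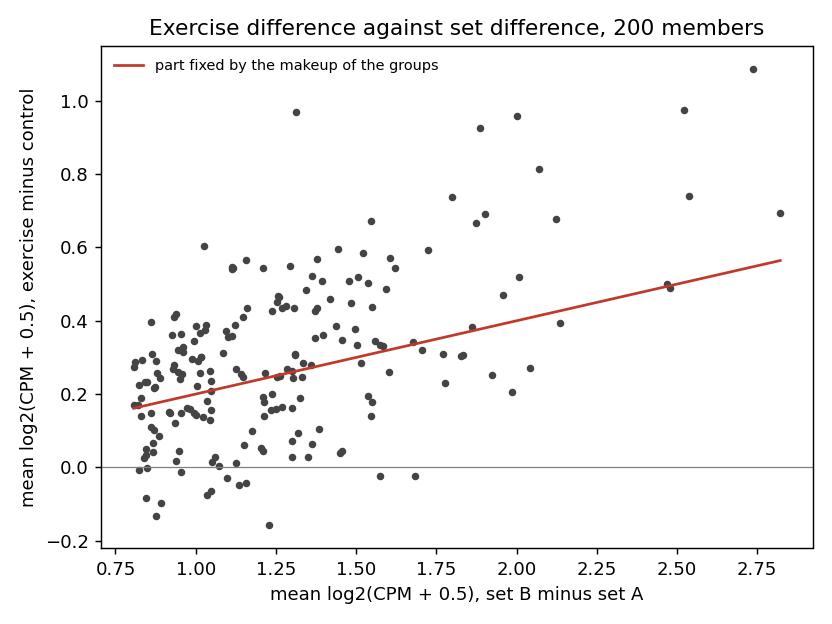
Difference of exercise minus control (vertical axis) against the difference of set B minus set A (horizontal axis), both in mean log2(CPM + 0.5), for the 200 members; the line marks the part that follows from 3 exercise and 2 control libraries in set B. Points scatter around the line, from -0.16 to 1.09, and the rest after subtracting it has a median of 0.03.

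Inside the sets the difference between exercise and control had no common sign. Within set B, exercise replicates 2, 3 and 4 minus control replicates 4 and 5 gave a median of 0.10 over members on the log2(CPM + 0.5) scale, above 0 in 140 of 200, against a median of 0.03 over the 14163 genes, 57.2% of which were above 0. Within set A, exercise replicates 1 and 5 minus control replicates 1, 2 and 3 gave a median of -0.05, above 0 in 86 of 200, against -0.01 and 46.4%. All exercise libraries lay above all controls within set B in 9 members (21.1% of all genes) and below them in 2 (13.9%). Within set A this held for 5 (8.70%) and 3 (9.94%). Each set, as the rule drew it, spans a wide range of member levels in both groups.

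Values of single members by group are given as a description. Each group holds libraries of both sets, so the rule widened the groups in every member. Nfu_g_1_020484 averaged 11.6 ± 11.3 CPM in exercise and 7.95 ± 9.86 CPM in control libraries (SD, n = 5 each). Its log2 fold change was 0.53 with an SE of 0.97 (edgeR adjusted p = 0.873). Nfu_g_1_006966 had the largest difference of exercise minus control on the log2(CPM + 0.5) scale, 1.09, at 13.8 ± 10.4 CPM in exercise and 6.26 ± 6.66 CPM in control libraries (SD, n = 5 each; edgeR adjusted p = 0.662). The smallest adjusted p, 0.462, belonged to the member ranked 72, described above as following the common profile least, with 94.4 ± 29.5 CPM in exercise and 52.4 ± 30.2 CPM in control libraries (SD, n = 5 each; log2 fold change 0.83 ± 0.40 (SE) in edgeR). At the other end, the member ranked 95 had the lowest difference of exercise minus control on the log2(CPM + 0.5) scale, -0.16. It had 7.16 ± 5.00 CPM in exercise and 7.85 ± 4.79 CPM in control libraries (SD, n = 5 each).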

How the data were processed

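The authors deposited raw counts per gene and a table of RPKM values, with 1 column per library. Per the submitters' processing notes, featureCounts 1.4.6-p4, STAR 2.4.1d and bcl2fastq 1.8.4 were used. The build of the genome is not given in the sources used here, nor is its annotation. Libraries were made with Illumina's TruSeq RNA kit, per the labels' protocols. That kit does not keep strand, so overlapping genes on opposite strands cannot be told apart.

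CPM values are counts divided by the column sum. The deposited RPKM values were not used for levels, because library totals had been applied in turn down the columns. This rule matched 100% of 218026 values above 0 within 0.0011, against 12.8% with own totals, and gave gene lengths (exact for 193 members, otherwise 1 of at most 5 possible lengths).

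Exercise was compared with control by edgeR 4.0.16 in R 4.3.3 (filterByExpr, TMM, robust quasi-likelihood F test, no covariate, 10 libraries), and alternatively by DESeq2 1.42.0 and limma 3.58.1. The edgeR procedure was tested on simulated data in which each gene was drawn independently. That simulation does not cover variation shared between genes, which the members show. The members, sets and tests were chosen with earlier results of these data known. Identifiers were printed only for the 2 members of largest difference. No member was higher in set A, so none was named there.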

Additional observations from a re-analysis of the deposited data

Results flagged for a closer look

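Exercise replicate 2 held 38.1 M assigned counts (M, 1000000), against 28.8 M in the next exercise library, a gap beyond Dixon's 95% limit for 5 values. It was the only such library in 32 sets of 5 values, which covered depth, genes detected, member levels and the members described by name or rank, and chance exceeds this limit in about 1 of 20 sets. On member level this library stood inside its group, at 0.58.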

How the results depend on the processing

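The members kept their direction between the sets in all 16 alternative forms of the rule, a direction that the choice of members fixes. TMM-scaled CPM gave the same 200 genes and a pseudocount of 1 kept 198. A minimum mean of 1 CPM kept 129 members, since lower genes then enter the top 200. A minimum of 10 CPM kept 120, since 80 members lie below it, and a list of 100 genes holds 100 of them by construction. In a list of 400 genes, 4 were higher in set A. With 1 library left out, 181 to 195 members were kept, 0 to 3 of the 200 genes were higher in set A, and 870 to 1323 genes passed the set rule, against 820. Fewer values then have to lie apart, which loosens the rule. The most, 1323, passed without exercise replicate 1, the set A library nearest to set B. For exercise against control, edgeR called 31 to 40 genes under other scalings and filters, DESeq2 395 and limma voom 106, and edgeR called 11 to 91 with 1 library left out; the cause was not tested. Members called were 0 in every one of these 16 alternatives, a count that the rule limits because both sets hold libraries of both groups. The median log2 fold change of members, 0.30, was 0.05 without exercise replicate 4, 0.16 without control replicate 3, 0.17 without control replicate 1, 0.50 without exercise replicate 5, 0.58 without control replicate 5 and 0.55 in limma voom, so its size rests on single libraries. No members were higher in set A, so their median could not be given. No paired analysis was possible because the labels give no number that exercise and control libraries share. Depth limits single low members, with 83 of 200 under 100 counts in their lowest library.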
